A study of Homo sapiens with 4 samples.

Results

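The genes described here are 45 genes of the hypoxia response, glycolysis and angiogenic signalling, of 25343 gene symbols listed in the series. They were taken by symbol from a list of members. They fall into 8 groups by role: 7 oxygen sensors and HIF factors, 3 angiogenic signals, 7 HIF target genes, 4 genes of glucose transport and phosphorylation, 7 of upper glycolysis, 3 of fructose 2,6-bisphosphate turnover, 7 of lower glycolysis and 7 of lactate and pyruvate handling. The study measured total RNA by sequencing in Huh7 and PLC/PRF/5, both cultured lines from human hepatocellular carcinoma, the latter known for its integrated hepatitis B virus DNA. Each line carried either a lentiviral hairpin RNA targeting SCD1, listed as SCD, an enzyme that desaturates stearoyl-CoA to oleoyl-CoA, or a non-target control hairpin. All cells were transduced, selected with puromycin and grown in the same high-glucose medium with serum, and the oxygen level of the cultures is not given in the sources used here. There were 4 groups (Huh7 control, Huh7 knockdown, PLC/PRF/5 control and PLC/PRF/5 knockdown) with 1 library each, and the labels name 1 hairpin against SCD1, so a difference within a line has no replicate check and cannot be told apart from an off-target effect of that hairpin.

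Cells sense oxygen through prolyl hydroxylases (EGLN enzymes), which mark the HIF alpha subunits for destruction by the VHL ubiquitin ligase while oxygen is present. When oxygen is short, HIF alpha proteins persist, pair with an ARNT partner and raise transcription of genes for glucose uptake, glycolysis, lactate export, acid balance and blood vessel growth. HIF activity is set mainly at the protein level, so RNA of HIF1A or VHL says little about it, whereas RNA of target genes such as CA9, NDRG1, ANKRD37 and EGLN3 is the usual readout. Glycolysis splits glucose into pyruvate in the cytosol. Tumour cells, hepatoma lines included, are known for turning much of that pyruvate into lactate by LDHA and exporting it through monocarboxylate transporters.

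Values are in TPM, a relative abundance per transcript length that sums to the same total in each library, so sequencing depth is unknown. Paired values give the control library first and the knockdown library after it. SCD was at 1755 against 137 TPM in Huh7 and at 1111 against 178 TPM in PLC/PRF/5. Of 12 hepatocyte markers, 12 were at 1 TPM or more in both Huh7 libraries and 11 in both PLC/PRF/5 libraries, where TTR was the exception. Of 6 endothelial markers, 1 reached 1 TPM in each library, their summed level was 1.69 to 3.63 TPM, and TEK was listed at 0 in all 4. Of 6 leukocyte markers, 3 reached 1 TPM in each Huh7 library and 2 in each PLC/PRF/5 library. Their sum was 1022 to 2614 TPM, nearly all LYZ, while PTPRC was under 1 TPM and MS4A1 was listed at 0 throughout. Of 6 fibroblast markers, 4 reached 1 TPM in each Huh7 library, and their sum was 55.8 against 77.6 TPM. In PLC/PRF/5, 1 and 0 of them reached 1 TPM, with sums of 3.47 against 2.53 TPM, and the part of these markers in the results was not tested.

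Knockdown libraries held less RNA of most glycolytic enzymes and more of EGLN1, VEGFA, ADM and LDHB in both lines. Among the HIF target genes, NDRG1 had opposite directions in the lines, P4HA1 was lower in both and P4HA2 higher in both. Fold changes are log2((knockdown TPM + 1)/(control TPM + 1)), and a gene was considered in a line if it had at least 1 TPM in at least 1 of its libraries. In each line 41 of the 45 members were considered, and 38 in both. ARNT2 was under 1 TPM in all libraries, CA9, SLC2A3 and PFKP in both Huh7 libraries, and EGLN3, ENO2 and SLC16A3 in both PLC/PRF/5 libraries. The median log2 fold change of the members was -0.16 in Huh7 and -0.18 in PLC/PRF/5, against 0.08 and 0.10 for all genes considered. In Huh7, 23 of 41 members were below 0 (39.7% of all genes) and 18 above (60.2% of all genes). In PLC/PRF/5, 29 of 41 were below 0 (36.5% of all genes) and 12 above (63.4% of all genes). Among 38 members with a value in each line, 16 were lower in both knockdown libraries, where 22.4% of all genes were, 7 were higher in both, where 46.5% were, and 15 had opposite signs, where 31% did. In bulk RNA a smaller number of cells with a transcript and less of it per cell cannot be told apart.

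Most of these differences were small. At a size rule of 1.5-fold, EGLN1, ADM, NDRG1 and LDHB were higher in the Huh7 knockdown (4 members; 9.91% of all genes) and EGLN3, P4HA1, SLC2A1, PFKFB4, SLC16A3 and PDK3 were lower (6 members; 4.86% of all genes). In PLC/PRF/5, LDHB was higher (1 member; 8.11% of all genes), and CA9, NDRG1, ANKRD37, SLC2A3, ALDOC, PGAM1 and PKLR were lower (7 members; 4.02% of all genes). LDHB was the 1 member past this rule in the same direction in both lines, where 2.24% of all genes were higher in both; no member was past it on the lower side in both, where 1.14% were. At 2-fold, 2 members were higher in Huh7 (EGLN1 and LDHB; 3.1% of all genes) and none lower (1.54% of all genes), while in PLC/PRF/5 1 was higher (LDHB; 1.72%) and 3 lower (CA9, NDRG1 and SLC2A3; 1.11%). Median-ratio scaling, which sets the typical gene of the libraries equal, shifted knockdown differences by -0.10 in Huh7 and -0.15 in PLC/PRF/5 on the log2 scale, and by less for genes near the pseudocount of 1. With it, the 1.5-fold counts became 2 higher and 8 lower in Huh7 and 1 higher and 8 lower in PLC/PRF/5. The shares of all genes past 1.5-fold with this scaling are not given here. The scaling also moved the median of all genes, to -0.01 in Huh7 and -0.03 in PLC/PRF/5. With it, 23 of 38 members were lower in both lines against 37.3% of all genes.

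**Figure D1:**
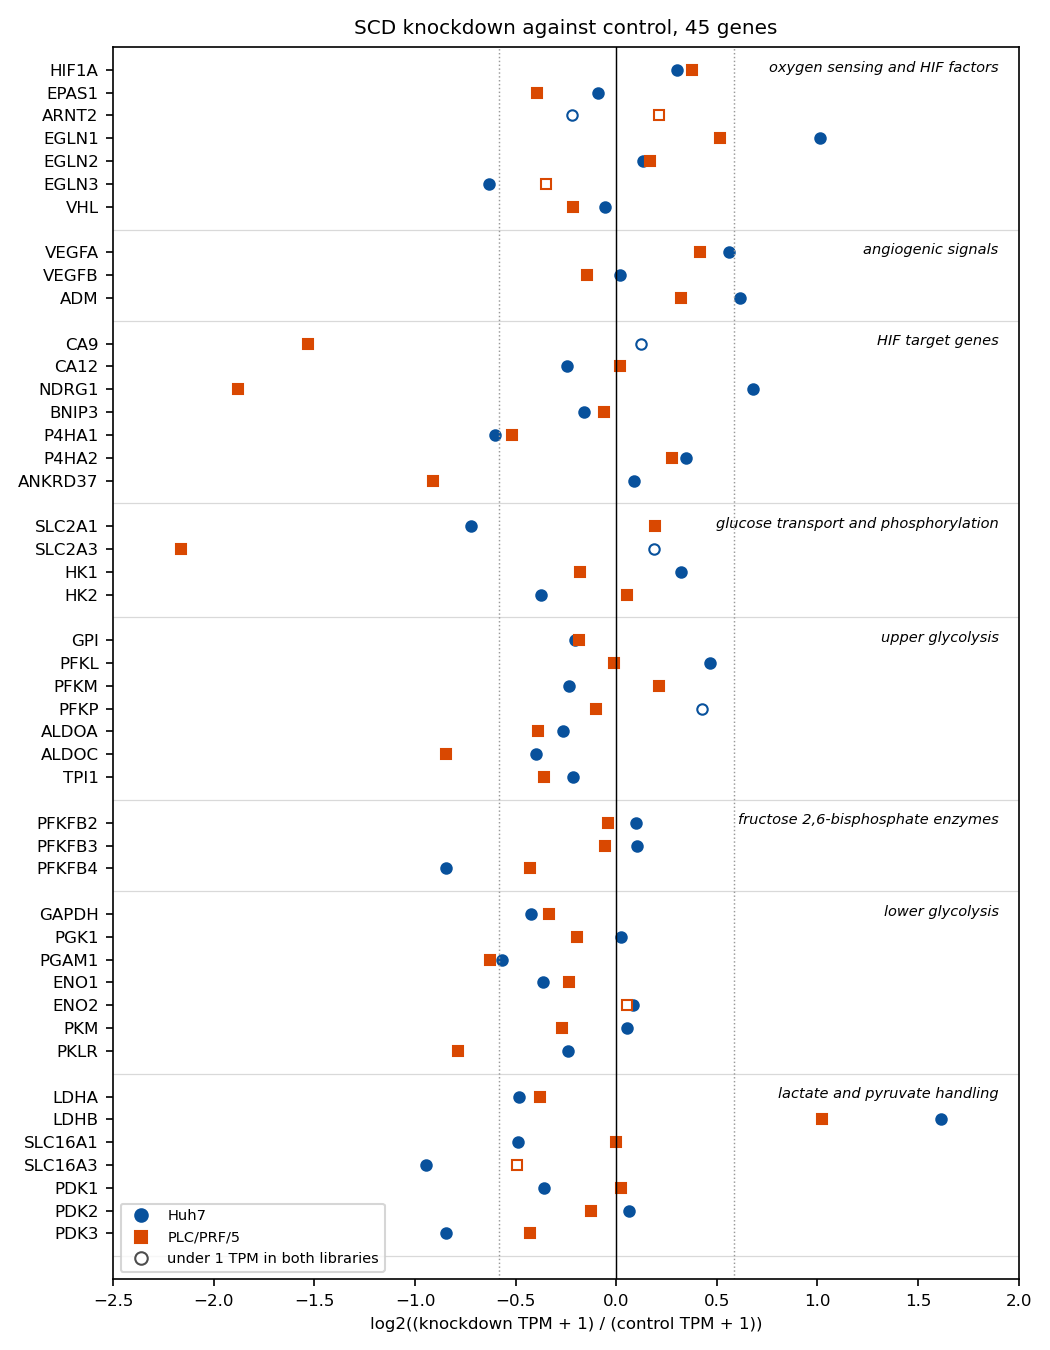
Log2 fold change of each of the 45 genes in Huh7 (blue circles) and PLC/PRF/5 (orange squares), by group, with open symbols for genes under 1 TPM in both libraries of a line and dotted lines at 1.5-fold. LDHB lies past the upper line in both lines, and NDRG1 lies past the upper line in Huh7 and at -1.88 in PLC/PRF/5.

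Among the oxygen sensors and HIF factors, HIF1A and EGLN1 were higher in both knockdown libraries. HIF1A, the alpha subunit of the main hypoxia factor, was at 266 against 327 TPM in Huh7 and at 92.4 against 120.1 TPM in PLC/PRF/5. EGLN1, the prolyl hydroxylase that sets HIF1A turnover in most cells, was at 30.6 against 62.8 TPM in Huh7 and at 37.3 against 53.7 TPM in PLC/PRF/5. For EGLN1, both knockdown libraries lay above both controls. EPAS1, the HIF2 alpha subunit, was lower in each knockdown, at 122 against 115 TPM in Huh7 and at 189 against 144 TPM in PLC/PRF/5. Its log2 fold changes were -0.09 and -0.39. HIF1A made up 68.5% of HIF alpha RNA (HIF1A, EPAS1 and HIF3A) in the Huh7 control and 74.1% in its knockdown, and 32.8% against 45.5% in PLC/PRF/5.

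EGLN2, the nuclear family member, was at 51.1 against 56.2 TPM in Huh7 and 82.3 against 92.6 TPM in PLC/PRF/5; 71.1% of its sequence lies also in the read-through gene RAB4B-EGLN2, which was at or under 0.88 TPM. EGLN3, a gene induced by HIF, was at 2.87 against 1.5 TPM in Huh7, lower in that knockdown while EGLN1 was higher. In PLC/PRF/5 EGLN3 was at 0.54 against 0.21 TPM, under 1 TPM in both libraries, and was not considered there. VHL was at 88.1 against 84.6 TPM and at 65.1 against 55.9 TPM. ARNT2, a partner subunit found mainly in neural tissue, was at 0.28 TPM or less in every library. The group's median was 0.04 in Huh7 (6 genes) and 0.17 in PLC/PRF/5 (5 genes). Of 8 further genes of this machinery, 7 were considered in both lines. Of these, 4 were higher in both (46.5% of all genes), 1 lower in both (22.4%) and 2 opposite (31%). HIF1AN, the asparagine hydroxylase that blocks coactivator binding to HIF, was at 34.2 against 44.4 TPM and at 38.7 against 45.5 TPM, and the coactivator gene CREBBP had log2 fold changes of 0.22 and 0.45. EP300, the related coactivator, had 0.08 and 0.26 (-0.02 and 0.12 after median-ratio scaling), and CITED2, which competes with HIF for these coactivators, 0.36 and -0.37.

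The angiogenic signals VEGFA and ADM were higher in both knockdown libraries. VEGFA, the main endothelial growth factor, was at 44.7 against 66.3 TPM in Huh7 and at 67.2 against 90.2 TPM in PLC/PRF/5. ADM, the vasodilator adrenomedullin, was at 16.6 against 26.0 TPM and at 17.2 against 21.7 TPM. VEGFB, which is not known as a strong HIF target, was at 25.2 against 25.5 TPM in Huh7 and at 102 against 92.0 TPM in PLC/PRF/5. The group median was 0.56 in Huh7 and 0.32 in PLC/PRF/5, the highest of the 8 groups in each line, with 3 genes in it. Among 25 further angiogenic ligands, receptors and inhibitors, 14 were considered in both lines. Of these, 5 were higher in both (46.5% of all genes), 4 lower in both (22.4%) and 5 opposite (31%).

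EDN1, which encodes the precursor of the vasoconstrictor endothelin, was at 5.21 against 40.9 TPM in Huh7 and at 8.48 against 13.0 TPM in PLC/PRF/5, with log2 fold changes of 2.75 and 0.56. HBEGF, a ligand of the EGF receptor, was at 5.16 against 8.77 TPM in Huh7 and at 2.11 against 6.58 TPM in PLC/PRF/5. SEMA3F, a secreted inhibitor of vessel growth, was at 5.54 against 1.35 TPM and at 2.03 against 1.36 TPM. The VEGF receptor genes KDR and FLT1, named here after their values were seen, were listed at 0 and at 0.03 TPM or less. The co-receptor gene NRP1, also named afterwards, was at 54.2 against 98.5 TPM in Huh7 and at 85.6 against 116 TPM in PLC/PRF/5. THBS1, an inhibitor of vessel growth likewise named afterwards, was at 72.3 against 146 TPM in Huh7 and at 1.06 against 2.57 TPM in PLC/PRF/5. Ligands and an inhibitor were both among the genes higher in both lines.

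**Figure D2:**
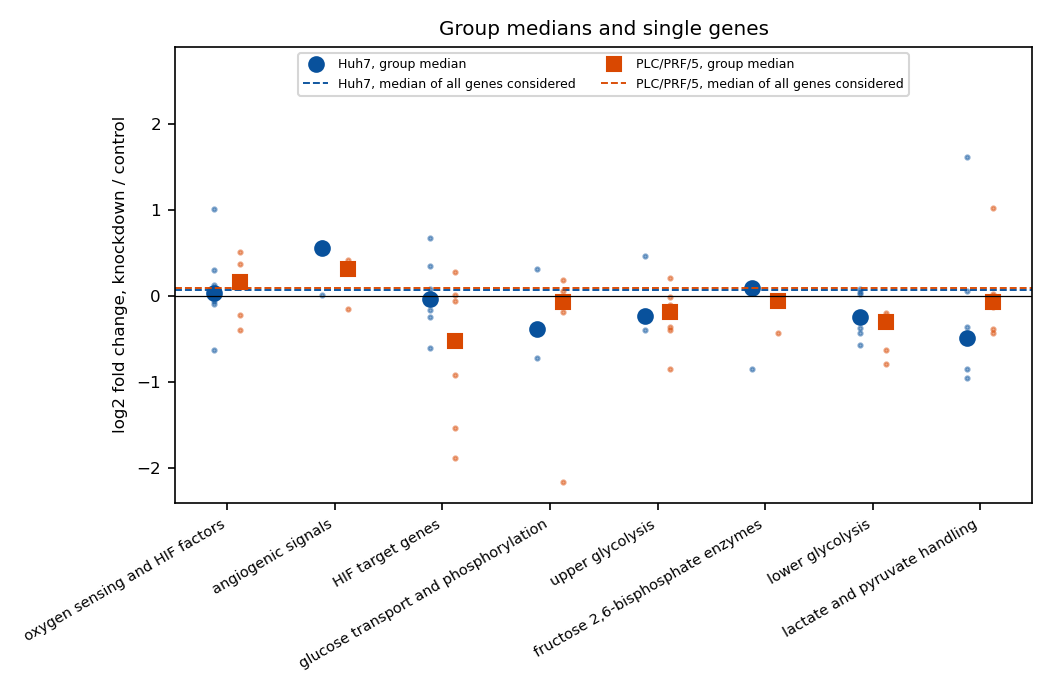
Median log2 fold change of each group (large symbols) with its genes (dots) in Huh7 and PLC/PRF/5, and the median of all genes considered in each line (dashed, 0.08 and 0.10). The angiogenic signals lie above the dashed lines in both lines, and upper and lower glycolysis lie below them.

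The HIF target genes had no common direction. NDRG1, a stress-responsive gene strongly induced by hypoxia, was at 41.0 against 66.4 TPM in Huh7 and at 34.4 against 8.62 TPM in PLC/PRF/5, with log2 fold changes of 0.68 and -1.88. It was the 1 member past 1.5-fold in opposite directions, and no test of that difference is possible with 1 library per group. CA9, the cell surface carbonic anhydrase used as a hypoxia marker, was at 4.2 against 0.80 TPM in PLC/PRF/5 and at 0.68 against 0.83 TPM in Huh7. ANKRD37, another HIF1 target, was at 6.62 against 3.05 TPM in PLC/PRF/5 and at 1.64 against 1.81 TPM in Huh7. In PLC/PRF/5 the group's median was -0.52 with 5 of 7 genes lower (36.5% of all genes), and in Huh7 -0.03 with 3 of 6 lower (39.7% of all genes). Without the filter on low values the Huh7 median was 0.09.

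CA9 and ANKRD37 are low and overlap other genes on the opposite strand, and the strand setting of the counting is not given in the sources used here. ARHGEF39 holds the reverse complement of 34.9% of the CA9 sequence and was at 27.6 against 21.2 TPM in PLC/PRF/5. UFSP2 holds that of 33.3% of ANKRD37 and was at 11.1 against 15.5 TPM there. The part of these overlaps in the 2 values was not tested.

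The collagen prolyl hydroxylase subunits, which stabilise collagen and are both HIF targets, split in the same way in both lines. P4HA1 was at 71.4 against 46.6 TPM in Huh7 and at 58.6 against 40.7 TPM in PLC/PRF/5. P4HA2 was at 34.5 against 44.1 TPM and at 40.4 against 49.2 TPM. The share of P4HA1 in the family (P4HA1, P4HA2 and P4HA3) was 67.3% against 51.3% in Huh7 and 59.1% against 45.1% in PLC/PRF/5. A share within a library is independent of how libraries are scaled. BNIP3, a mitophagy receptor, was at 143 against 127.6 TPM and at 124 against 119 TPM, and CA12, another membrane carbonic anhydrase, at 24.3 against 20.4 TPM and at 2.93 against 2.98 TPM.

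Among 33 further HIF target genes, 27 were considered in both lines. Of these, 12 were lower in both (22.4% of all genes), 7 higher in both (46.5%) and 8 opposite (31%). DDIT4, an mTORC1 inhibitor induced by hypoxia and other stresses, was at 20.0 against 10.2 TPM in Huh7 and at 383 against 181 TPM in PLC/PRF/5. LOX, the collagen cross-linking lysyl oxidase, was at 131 against 68.6 TPM and at 7.76 against 2.63 TPM. BHLHE41, a transcriptional repressor of the clock system, was at 0.64 against 2.59 TPM and at 2.95 against 10.6 TPM, and HMOX1, the heme-degrading enzyme that NRF2 also induces, at 27.7 against 44.4 TPM and at 153 against 373 TPM. Of these 27 genes, 4 were past 1.5-fold lower in both lines (1.14% of all genes) and 2 past 1.5-fold higher in both (2.24%). The median of the list was -0.01 in Huh7 and -0.22 in PLC/PRF/5.

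**Figure D3:**
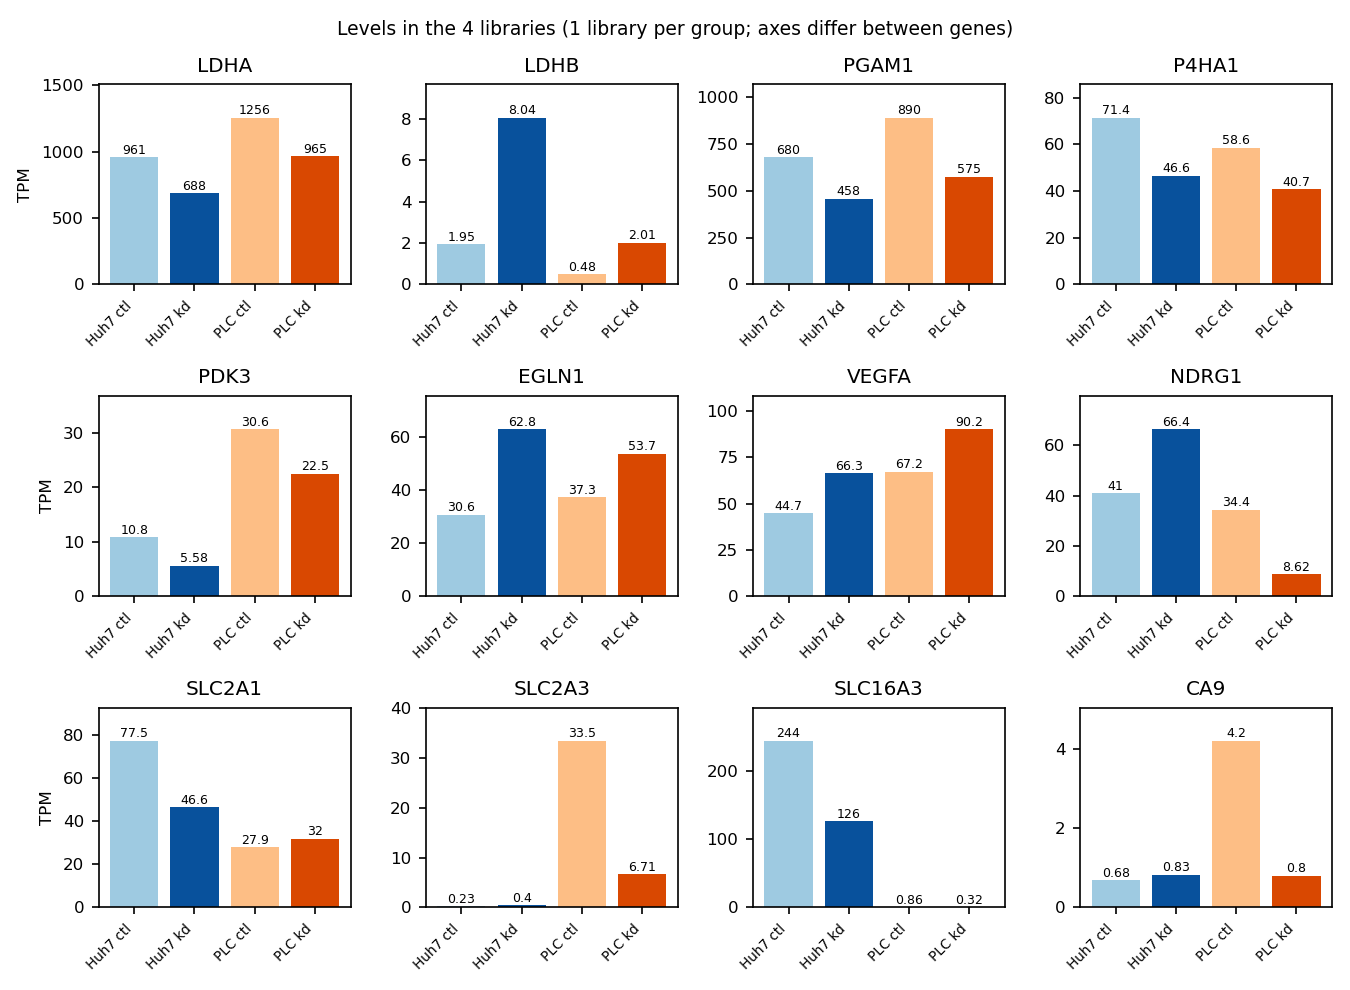
TPM of 12 members in the 4 libraries, with each axis starting at 0 and scaled to its gene (ctl, control; kd, knockdown; PLC, PLC/PRF/5). LDHA, PGAM1, P4HA1 and PDK3 are lower and LDHB, EGLN1 and VEGFA higher in the knockdown of both lines, while SLC2A3, SLC16A3 and CA9 are above 1 TPM in 1 line only.

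Glucose transporters and hexokinases differed mainly by line. SLC2A1 (GLUT1), the transporter of most tumour cells, was at 77.5 against 46.6 TPM in Huh7 and at 27.9 against 32.0 TPM in PLC/PRF/5. SLC2A3 (GLUT3), a high-affinity transporter, was at 33.5 against 6.71 TPM in PLC/PRF/5, 4.99-fold lower, and at 0.23 against 0.40 TPM in Huh7. Summed, SLC2A1, SLC2A2 and SLC2A3 were at 79.6 against 49.4 TPM in Huh7, 37.9% lower, and at 63.8 against 39.96 TPM in PLC/PRF/5, 37.4% lower. A further sum, added after the values were seen, took the 11 SLC2A genes in the gene lists used here, which may not be the whole family. It was at 188 against 175 TPM in Huh7, 7.11% lower, and at 139 against 112 TPM in PLC/PRF/5, 19.5% lower. SLC2A6 and SLC2A8, family members named after their values were seen, were higher in both knockdowns, at 30.8 against 47.9 TPM and 52.7 against 56.6 TPM in Huh7. In PLC/PRF/5 SLC2A6 was at 29.7 against 30.99 TPM (log2 fold change -0.08 after median-ratio scaling) and SLC2A8 at 20.8 against 24.1 TPM. SLC2A3 shares 39.7% of its sequence with listed genes, mainly SLC2A14, which was at 0.42 against 0.54 TPM in PLC/PRF/5, and the part of this overlap in the value was not tested.

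HK2, the hexokinase typical of tumours, was at 39.97 against 30.6 TPM in Huh7 and at 16.7 against 17.4 TPM in PLC/PRF/5. HK1, the widely expressed form, was at 3.41 against 4.51 TPM and at 14.8 against 13.0 TPM. HKDC1, a hexokinase-domain gene outside the members, was at 0.88 against 6.52 TPM in Huh7 and at 31.8 against 48.6 TPM in PLC/PRF/5, higher in both knockdowns. Its share of hexokinase RNA was 1.99% against 15.7% in Huh7 and 50.2% against 61.5% in PLC/PRF/5, while that of HK2 was 90.3% and 73.5% and 26.4% and 22.1%. Of the 21 further glucose transport and glycolysis genes, 12 were considered in both lines. Of these, 8 were lower in both (22.4% of all genes), 3 higher in both (46.5%) and 1 opposite (31%). SLC2A4 (GLUT4), the insulin-regulated transporter, was at 5.89 against 2.43 TPM and at 7.73 against 4.43 TPM, and SLC2A9, a urate transporter, at 2.65 against 1.61 TPM and at 5.22 against 1.44 TPM.

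In upper glycolysis, GPI, ALDOA, ALDOC and TPI1 were lower in both knockdowns. ALDOA, the main aldolase, was at 1327 against 1105 TPM in Huh7 and at 1258 against 960.2 TPM in PLC/PRF/5. ALDOC, a minor aldolase that hypoxia induces, was at 29.4 against 22.1 TPM and at 41.8 against 22.8 TPM. TPI1, which interconverts the triose phosphates, was at 1021 against 878 TPM and at 1222 against 952 TPM, and GPI, which makes fructose 6-phosphate, at 191 against 165 TPM and at 412 against 362 TPM.

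Phosphofructokinase, the committed step, was the exception. PFKL, the liver subunit, was at 99.4 against 137 TPM in Huh7 and at 111 against 110.2 TPM in PLC/PRF/5. PFKM, the muscle subunit, was at 71.8 against 60.9 TPM and at 78.6 against 91.3 TPM. PFKP, the platelet subunit, was at 84.8 against 79.1 TPM in PLC/PRF/5 and under 0.5 TPM in Huh7. The 3 subunits summed to 171 against 199 TPM in Huh7 and to 274.5 against 281 TPM in PLC/PRF/5; the PLC/PRF/5 sum was lower in the knockdown after median-ratio scaling (log2 fold change -0.11). Of the bifunctional enzymes that set fructose 2,6-bisphosphate, the activator of phosphofructokinase, PFKFB3 was the most abundant, at 42.2 against 45.4 TPM and at 86.1 against 82.9 TPM. PFKFB4, a hypoxia-inducible form, was at 10.6 against 5.43 TPM and at 10.3 against 7.39 TPM, lower in both knockdowns, and PFKFB2 at 5.63 against 6.09 TPM and at 17.1 against 16.6 TPM.

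In lower glycolysis, GAPDH, PGAM1, ENO1 and PKLR were lower in both knockdowns. GAPDH, widely used as a reference gene, was at 4118 against 3069 TPM in Huh7, 25.5% lower, and at 7842 against 6223 TPM in PLC/PRF/5, 20.6% lower. PGAM1, phosphoglycerate mutase, was at 680.0 against 458 TPM, 32.6% lower, and at 889.5 against 575 TPM, 35.4% lower. ENO1, the main enolase, was at 1798 against 1395 TPM and at 1614 against 1371 TPM. PKLR, the liver form of pyruvate kinase, was at 1.22 against 0.88 TPM and at 8.14 against 4.29 TPM. PKM, the form of tumours and muscle, was at 1618 against 1681 TPM in Huh7 and at 1264 against 1047 TPM in PLC/PRF/5, and PGK1 at 207 against 209.7 TPM and at 574 against 501 TPM. Both were slightly higher in the Huh7 knockdown as deposited and slightly lower there after median-ratio scaling (log2 fold changes of -0.04 and -0.08).

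PGAM1 shares 28.7% of its sequence with listed genes, mainly PGAM4, which was at 0.18 TPM or less. ENO2, the neuronal enolase, was at 1.64 against 1.80 TPM in Huh7 and at 0.05 against 0.09 TPM in PLC/PRF/5. PGAM5, a mitochondrial phosphatase named for its likeness to the mutases and not a glycolytic enzyme, was lower by nearly the same ratio in both lines, at 68.5 against 35.8 TPM and at 132.9 against 69.9 TPM.

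Added up over the 11 steps from hexokinase to lactate dehydrogenase, glycolytic RNA came to 12191 against 9942 TPM in Huh7, 18.4% lower. In PLC/PRF/5 it came to 16729 against 13355 TPM, 20.2% lower. By step, 8 of 11 sums were lower in the Huh7 knockdown and 9 of 11 in the PLC/PRF/5 knockdown, and 10 of 11 in each line after median-ratio scaling. The phosphoglycerate mutase step had the lowest log2 fold change in each line, -0.57 and -0.63. The step above 0 in both lines was phosphofructokinase, at 0.21 and 0.03. These enzymes are among the most abundant transcripts, and most abundant transcripts were lower in the knockdown libraries. Of all genes with at least 500 TPM in the control, a level chosen after the values were seen, 208 of 282 were lower in Huh7 (median log2 fold change -0.11) and 192 of 274 in PLC/PRF/5 (-0.08). With cytosolic ribosomal protein genes left out, 140 of 209 were lower in Huh7 (-0.09) and 127 of 199 in PLC/PRF/5 (-0.06). The level was set on the control library alone, and these genes include SCD. Of the members at that level, 6 of 7 were lower in Huh7 (-0.37) and 8 of 8 in PLC/PRF/5 (-0.35).

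**Figure D4:**
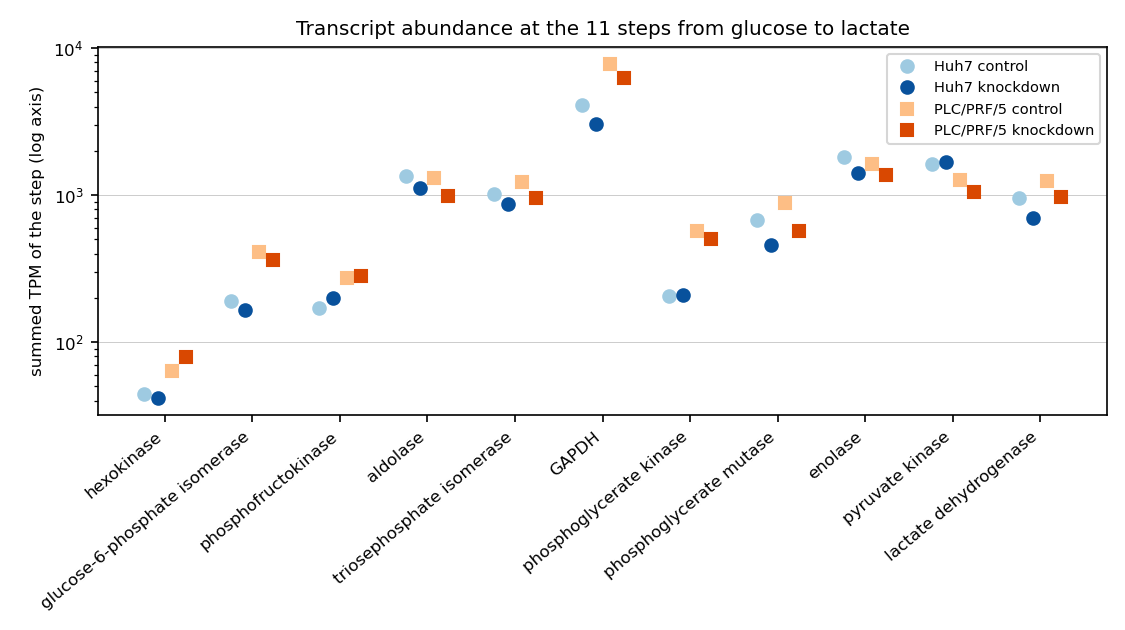
Summed TPM of the enzymes of each of the 11 steps from glucose to lactate in the 4 libraries (log axis). Knockdown symbols lie below those of their control at 8 steps in Huh7 and 9 in PLC/PRF/5, and the GAPDH step is the most abundant in each library.

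The lactate dehydrogenase genes had opposite directions in both lines. LDHA, the subunit that favours lactate formation, was at 961 against 688 TPM in Huh7 and at 1256 against 965 TPM in PLC/PRF/5. LDHB, the heart-type subunit that favours the return to pyruvate, was at 1.95 against 8.04 TPM in Huh7 and at 0.48 against 2.01 TPM in PLC/PRF/5. These are ratios of 4.12 and 4.19, from low levels. LDHB remained a minor form, with 0.20% and 1.16% of lactate dehydrogenase RNA in Huh7 and 0.04% against 0.21% in PLC/PRF/5. Of the LDHB transcript, 61.6% also occurs in other genes of the GENCODE annotation, none of which is listed in the deposited tables, and reads of such copies could be counted as LDHB. The same holds for 88.2% of ALDOA and 34.3% of GAPDH, nearly all of it in genes not listed.

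Stretches upstream of 4 of these genes are printed to show the core of the hypoxia response element, the short motif that HIF binds. LDHA, GAPDH and PDK3 were lower in both knockdowns, and LDHB, which was higher, holds no core in its stretch. The 4 are examples, and the core also occurred near members that were higher, as given below. Capitals mark ACGTG or GCGTG on either strand; a CACGTG holds ACGTG on both strands and is 1 place. The sequences are RefSeq promoter windows on GRCh38.p14, not the authors' build, trimmed to the part outside annotated exons, and run 5′ to 3′ on the gene's strand.
LDHA, chr11:18394313-18394387, plus strand: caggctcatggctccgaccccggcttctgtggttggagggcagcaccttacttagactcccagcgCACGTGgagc
GAPDH, chr12:6535142-6535263, plus strand: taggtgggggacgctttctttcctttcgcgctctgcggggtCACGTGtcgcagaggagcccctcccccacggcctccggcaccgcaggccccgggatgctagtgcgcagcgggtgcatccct
PDK3, chrX:24465036-24465220, plus strand: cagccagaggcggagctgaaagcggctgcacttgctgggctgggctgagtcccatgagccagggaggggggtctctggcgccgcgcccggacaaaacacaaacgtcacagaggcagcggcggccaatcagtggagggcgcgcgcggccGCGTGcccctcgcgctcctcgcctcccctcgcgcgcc
LDHB, chr12:21657972-21658092, minus strand: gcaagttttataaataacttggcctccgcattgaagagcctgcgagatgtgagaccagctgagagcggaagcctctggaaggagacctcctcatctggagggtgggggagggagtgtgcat

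In the 250 bases upstream of the start, LDHA held the core at 3 places and LDHB at 0. The counts here are on whole windows, not trimmed for exons. The printed LDHA stretch of 75 bases holds 1 place, and the stretch of P4HA1 trimmed in the same way holds 0. Of the 45 members, 38 matched a promoter entry. ACGTG occurred in 16 of them (42.1%) against 18.7% of 27305 promoters of this length, and GCGTG in 14 (36.8%) against 31.9%. Either motif occurred in 25 (65.8%) against 43.1%. Members with and without a match both had medians below 0: the median log2 fold change was -0.18 in Huh7 and -0.22 in PLC/PRF/5 for members with a match (24 considered in each line), and -0.23 (12) and -0.10 (11) for those without. EGLN1, which was higher in both knockdowns, held ACGTG at 1 place, as did P4HA1, which was lower. Of the other members higher in both, HIF1A, EGLN2 and ADM held a core, P4HA2 and LDHB held none, and VEGFA had no entry. Of the members considered in both lines and lower in both, PGAM1 and TPI1 held none. VHL and SLC16A1, also lower, had no entry, and the other lower members held the core. A match is a description of letters and does not show binding.

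The lactate exporters were lower in the Huh7 knockdown. SLC16A3 (MCT4), the hypoxia-inducible exporter, was at 244 against 126 TPM in Huh7 and at 0.86 against 0.32 TPM in PLC/PRF/5. SLC16A1 (MCT1), which carries lactate both ways, was at 130.4 against 92.7 TPM in Huh7 and at 69.0 against 69.0 TPM in PLC/PRF/5. Summed with SLC16A7 (MCT2), transporter RNA was 411.5 against 255 TPM in Huh7 and 70.1 against 69.5 TPM in PLC/PRF/5. Among the pyruvate dehydrogenase kinases, which close the entry of pyruvate into the mitochondrial cycle, PDK3 was lower in both knockdowns, at 10.8 against 5.58 TPM and at 30.6 against 22.5 TPM. PDK1, the best known HIF target of the family, was at 15.3 against 11.7 TPM in Huh7 and at 20.1 against 20.4 TPM in PLC/PRF/5, and PDK2 at 5.54 against 5.83 TPM and at 24.8 against 22.7 TPM.

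Of 19 further lactate and pyruvate genes, 15 were considered in both lines, 7 of them higher in both (46.5% of all genes), 3 lower in both (22.4%) and 5 opposite (31%). None of 16 was past 1.5-fold in Huh7, and 2 of 16 were past it on the higher side in PLC/PRF/5 (8.11% of all genes). These were PDK4 and LDHD, a D-lactate dehydrogenase named after its value was seen, which was at 1.56 against 3.07 TPM there and under 1 TPM in Huh7. PDK4, a kinase induced by fatty acids and fasting, was at 1.54 against 1.64 TPM in Huh7 and at 16.9 against 27.3 TPM in PLC/PRF/5. The mitochondrial pyruvate carrier gene MPC2 was at 144 against 184 TPM and at 104 against 127 TPM, while its partner MPC1 was at 162 against 117 TPM and at 39.7 against 41.8 TPM. PC, pyruvate carboxylase, was at 197 against 146 TPM and at 26.5 against 25.8 TPM. The genes of pyruvate entry and the kinases that oppose it therefore showed no common direction.

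**Figure D5:**
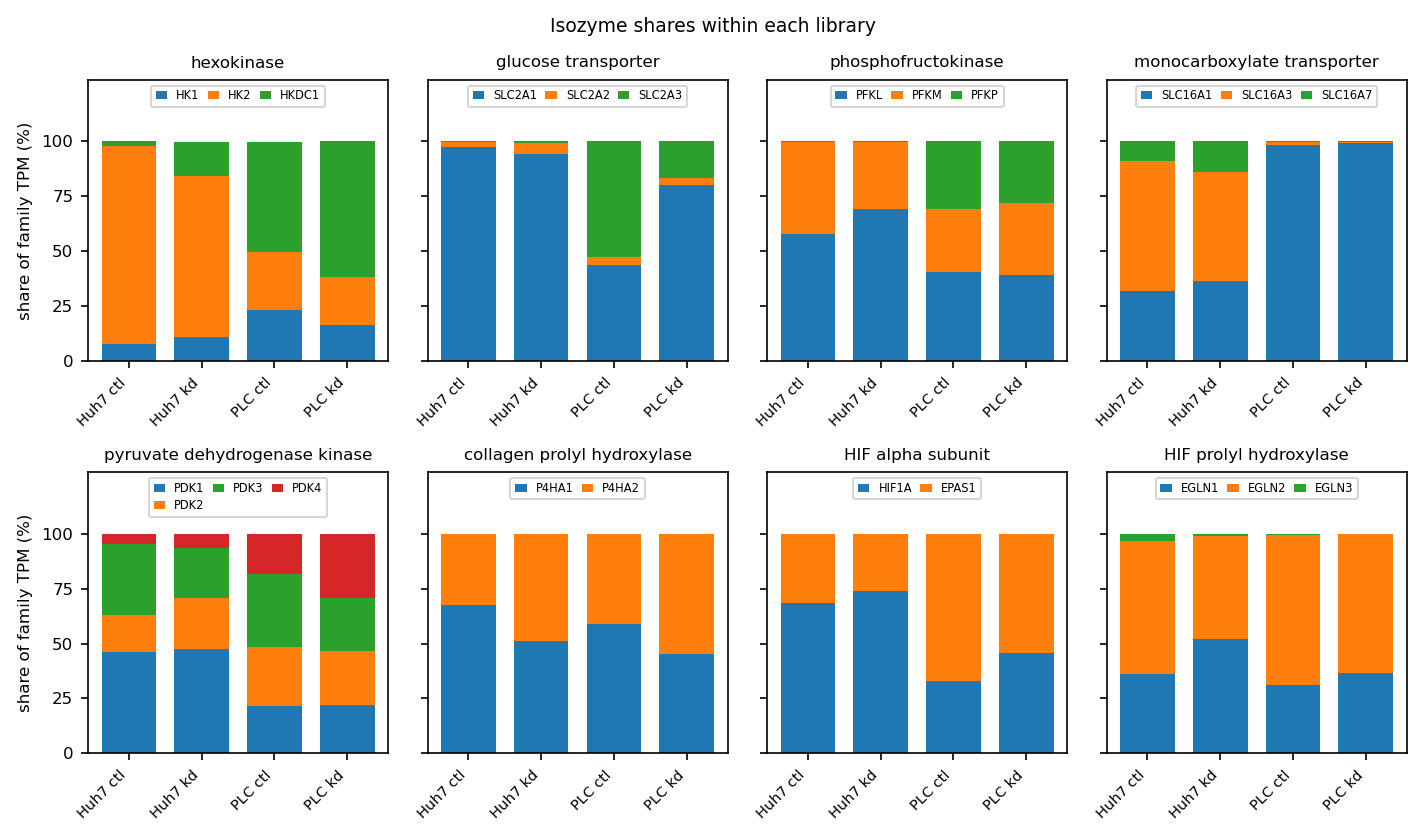
Share of each gene in the summed TPM of 8 families in the 4 libraries (ctl, control; kd, knockdown; PLC, PLC/PRF/5), leaving out genes under 1% in all libraries. P4HA1 has a smaller share in both knockdowns, and SLC2A3 has 52.5% of the RNA of the 3 plotted transporters in the PLC/PRF/5 control and 16.8% in its knockdown.

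The lines themselves used different isozymes. In the control libraries, 13 of 44 members were at least 2-fold higher in PLC/PRF/5, where 14.9% of all genes were, and 7 at least 2-fold higher in Huh7, where 15.8% were. Huh7 had SLC16A3 and almost no PFKP or SLC2A3, and PLC/PRF/5 the reverse. These 3 genes, EGLN3 and ENO2 were under 1 TPM in both libraries of a line and entered the fit across lines only through the other line, so their line difference is given as levels, with no test. In that limma fit over the 4 libraries, with arm as a term, the difference of PLC/PRF/5 minus Huh7 was 1.89 for VEGFB (standard error 0.11, adjusted p = 4.9e-04) and 1.36 for PGK1 (standard error 0.09, adjusted p = 7.2e-04) on the log2 scale. GAPDH was 0.97 higher (standard error 0.10, adjusted p = 0.0016) in PLC/PRF/5, and the difference for HIF1A was -1.48 (standard error 0.08, adjusted p = 4.9e-04).

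Of the 38 members with at least 1 TPM in a library of each line, 17 were higher in PLC/PRF/5, where 30.4% of such genes were, and 8 lower, where 24.2% were, by limma with Benjamini-Hochberg adjustment. With the other 5 the counts were 19 and 11 of 43 (31.5% and 28.3% of all genes fitted). With 1 library per group these p-values rest on the 2 arms giving similar line differences, and not on repeat cultures. Without a filter on low values none of the 30 passed.

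No member passed the test of a knockdown difference common to the lines, and neither did SCD, the knocked-down gene (limma, adjusted p = 0.128), so the test says little about the members that did not pass. This limma fit used log2(TPM + 1) values and a term for the cell line, had 1 residual degree of freedom, and took the lines as the 2 repeats. Of 13813 genes tested, 0% passed as higher and 0.00724% (1 gene, not a member) as lower at an adjusted p under 0.05. Of the 43 members tested, 0 passed in either direction, and the smallest adjusted p was 0.129, for PGAM1. At an unadjusted p under 0.05, 11 members were lower, where 5.24% of all genes were, and 6 higher, where 12.7% were.

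The 11 lower members were P4HA1, ALDOA, ALDOC, TPI1, PFKFB4, GAPDH, PGAM1, ENO1, LDHA, SLC16A3 and PDK3, and the 6 higher were HIF1A, EGLN1, VEGFA, ADM, P4HA2 and LDHB. SLC16A3 was under 1 TPM in both PLC/PRF/5 libraries and entered only through Huh7. Over the 38 members with at least 1 TPM in each line, 10 were lower (5.89% of such genes) and 6 higher (14.2%). The mean log2 fold change over the lines was -0.60 for PGAM1 (standard error 0.08), -0.43 for LDHA (standard error 0.08, adjusted p = 0.167) and -0.56 for P4HA1 (standard error 0.10, adjusted p = 0.157). It was 1.32 for LDHB (standard error 0.23, adjusted p = 0.157), 0.76 for EGLN1 (standard error 0.15, adjusted p = 0.175) and 0.49 for VEGFA (standard error 0.10, adjusted p = 0.177), all by limma. With median-ratio scaling the unadjusted counts were 15 lower and 3 higher, and without the cell line block 0 lower and 1 higher. The shares of all genes under these settings are not given here, and the scaling shifted the knockdown differences of all genes downwards.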

How the data were processed

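RNA was sequenced in 4 libraries, 1 per group, and the deposited values are TPM per gene symbol, rounded to 2 decimals. Per the submitters' processing notes the authors used cutadapt, RSEM 1.2.21 and hg19; aligner, annotation and strandedness: not given in the sources used here. Depth is unknown, so no counting interval is given.

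Fold changes used log2(TPM + 1) within each line, for genes with at least 1 TPM in at least 1 library, with no test. Across lines, limma 3.58.1 (R 4.3.3, variance trend, cell line block, two-sided, Benjamini-Hochberg over 13813 genes with at least 1 TPM in at least 2 libraries) was fitted to all 4 libraries, after being tested on simulated data. Nothing says that libraries came from separate cultures beyond the 4 groups. Every member is named; of each further list, the 3 genes with the largest mean and the 3 with the largest single change are named, except where a gene is not reported here. Members and lists were chosen with earlier results of these data known, and the steps' sums after values were seen. Shared sequence was counted as words of 31 bases in GENCODE 29 transcripts, and promoters came from RefSeq. The alternatives tried were other pseudocounts (0.1, 5), other low-value filters (5 TPM, no filter), median-ratio scaling, no variance trend, and no block or arm term.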

Additional observations from a re-analysis of the deposited data

Results flagged for a closer look

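NDRG1 was past 1.5-fold in opposite directions in the lines. Its log2 fold change was 0.68 for Huh7 and -1.88 for PLC/PRF/5, a difference of -2.56 on the log2 scale. The difference was not tested, since each line had 1 library per arm. This was so for 1 of 38 members (2.63%) and for 76 of 12064 genes considered in both lines (0.63%).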

How the results depend on the processing

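No member passed an adjusted p under 0.05 for the common knockdown difference in limma under any alternative run, nor did SCD, whose adjusted p was 0.087 to 1. With median-ratio scaling, 2 members were at least 1.5-fold higher in Huh7 (4 as deposited), the PLC/PRF/5 median was -0.32 (-0.18 as deposited), and 3 members were higher at an unadjusted p under 0.05 (6 as deposited). With a pseudocount of 5, 2 members were at least 1.5-fold lower in Huh7 (6 with 1) and 0 higher in PLC/PRF/5 (1 with 1). With a TPM filter of 5, 0 were at least 1.5-fold higher in PLC/PRF/5, since LDHB is under it there. Without a filter, 4 members were lower at an unadjusted p under 0.05 (11 with it), and 0 were higher and 0 lower between the lines at an adjusted p (19 and 11 with it). Without the cell line block, 1 was higher and 0 lower at an unadjusted p. Except for the filter of 5, the cause was not tested. The shares of all genes passing these rules under the alternatives are not given here, so these counts have no background beside them. Among the results for single members and their groups, there were 14 sign changes under an alternative. The largest of these results was 0.07 in size on the log2 scale as first computed. The Huh7 median of the oxygen sensors and HIF factors changed sign both with median-ratio scaling and without a filter. The further genes and the step sums were not part of this count. Among the sign changes, with median-ratio scaling in PLC/PRF/5, HK2 went from 0.06 to -0.08, PDK1 from 0.02 to -0.12 and CA12 from 0.02 to -0.09. The Huh7 median of the HIF target genes went from -0.03 to 0.09 without a filter. Counts over genes with at least 1 TPM in each line were an alternative chosen after seeing the data. The fit with the cell line block pairs knockdown and control within each line. No further pairing by replicate could be made, since each group has 1 library, and leaving out a line leaves 1 difference with no test. Low genes such as LDHB and CA9 are limited by an unknown depth.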
